A study of Saccharomyces cerevisiae with 21 samples.

Results

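The 7 genes described here encode the protein disaggregases, the sorting factors and the small heat shock proteins of budding yeast: *HSP104*, *HSP78*, *BTN2*, *CUR1*, *HSP42*, *HSP26* and *HSP12*. They were taken by locus tag from the 5767 genes listed in at least 1 ribosome profiling library, and all 7 were listed. The set was selected on measured values, because the counts and polarity scores of cycloheximide (CHX) pretreated cells after 15 min without glucose had been seen when it was put together. That contrast is therefore given as a description, with no test. The tests below come from libraries made without pretreatment.

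Ribosome-protected fragments (RPFs), the stretches of mRNA that a ribosome shields from nuclease, were sequenced from the wild-type haploid strain BY4741, and 19 libraries were analysed. The 12 libraries of the time course came from cells in log phase in synthetic complete medium and from cells moved to the same medium without glucose, harvested at 6 times between 1 and 30 min. None of these was pretreated except 1 matched library of 15 min, for which CHX, a drug that stops elongating ribosomes, was added to the culture just before harvest. Log phase, 1, 5 and 15 min had 2 libraries each, and 10, 20 and 30 min and the matched condition had 1. A separate experiment held 4 pretreated libraries, 2 of 15 min without glucose and 2 of log phase, in the same synthetic medium. Another experiment held single libraries, without pretreatment, of log phase, 1 day (postdiauxic shift) and 5 days (stationary phase) of growth in rich medium (YPD). Read totals ranged from 71816 to 7896332 per library. The time course libraries of replicate 1 of log phase, 1, 5 and 15 min and the matched one held 3523240 to 7896332 reads, whereas replicate 2 of those times and the 10, 20 and 30 min libraries held 71816 to 135958. RNA-seq and glucose readdition samples were not analysed here, so less mRNA and fewer ribosomes per mRNA cannot be told apart.

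When proteins misfold, cells keep the aggregates soluble, collect them at defined sites and later take them apart. Small heat shock proteins bind unfolded chains and co-assemble with them. Sorting factors bring misfolded proteins to deposits near the nucleus or in the cytosol. Disaggregases of the Hsp100 family are ring-shaped ATPases that thread trapped chains through a central pore with help from Hsp70 and its J protein partners. In yeast many of these genes are driven by the heat shock factor Hsf1, which binds heat shock elements (HSEs), or by Msn2 and Msn4, which bind stress response elements (STREs) and are held inactive while glucose is plentiful.

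*HSP104* (YLL026W, chrXII:88623-91349, plus strand) encodes the cytosolic and nuclear disaggregase of 908 residues, and *HSP78* (YDR258C, chrIV:971808-974243, minus strand) its mitochondrial relative of 811 residues. A global alignment of both proteins, translated from the R64 genome, placed 44.9% identical residues in 799 aligned positions. *BTN2* (YGR142W, chrVII:772454-773686, plus strand) and *CUR1* (YPR158W, chrXVI:843262-844020, plus strand) encode paralogous sorting factors of 410 and 252 residues that were 31.3% identical over 252 positions. *HSP42* (YDR171W, chrIV:806621-807748, plus strand) and *HSP26* (YBR072W, chrII:382030-382674, plus strand) encode alpha-crystallin type small heat shock proteins of 375 and 214 residues that were 32.2% identical over 208 positions. *HSP12* (YFL014W, chrVI:107256-107585, plus strand) encodes a small membrane-binding protein of 109 residues. Each gene has a single coding exon.

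The promoter windows of *HSP42* and *HSP78* are shown because both hold the STRE core and the HSE core, and those of *BTN2* and *CUR1* because these paralogues had the highest and the lowest change of the set at 15 min. Each runs 5′ to 3′ on the gene's own strand from 250 bases before the start codon to 50 bases into the coding sequence (RefSeq, build R64), and capitals mark every match to the STRE core AGGGG on either strand or to the HSE core GAANNTTC or TTCNNGAA. The windows are chrIV:806371-806670 (plus), chrIV:974194-974493 (minus), chrVII:772204-772503 (plus) and chrXVI:843012-843311 (plus).
HSP42: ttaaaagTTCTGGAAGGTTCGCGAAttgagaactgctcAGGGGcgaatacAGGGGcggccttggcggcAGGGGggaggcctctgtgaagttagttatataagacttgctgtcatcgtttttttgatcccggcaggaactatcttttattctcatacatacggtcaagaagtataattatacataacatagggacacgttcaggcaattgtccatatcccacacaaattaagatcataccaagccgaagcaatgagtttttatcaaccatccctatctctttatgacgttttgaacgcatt
HSP78: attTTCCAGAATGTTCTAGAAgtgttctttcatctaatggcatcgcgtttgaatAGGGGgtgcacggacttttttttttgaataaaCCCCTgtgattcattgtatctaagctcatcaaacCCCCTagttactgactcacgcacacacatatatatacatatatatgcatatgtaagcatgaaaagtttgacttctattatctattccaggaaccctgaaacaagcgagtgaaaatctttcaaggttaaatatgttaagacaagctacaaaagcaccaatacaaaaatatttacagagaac
BTN2: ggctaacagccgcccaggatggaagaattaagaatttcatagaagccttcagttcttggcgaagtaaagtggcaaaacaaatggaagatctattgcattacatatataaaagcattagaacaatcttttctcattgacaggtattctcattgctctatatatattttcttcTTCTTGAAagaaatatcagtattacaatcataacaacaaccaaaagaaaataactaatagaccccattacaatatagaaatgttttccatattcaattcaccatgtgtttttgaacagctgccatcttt
CUR1: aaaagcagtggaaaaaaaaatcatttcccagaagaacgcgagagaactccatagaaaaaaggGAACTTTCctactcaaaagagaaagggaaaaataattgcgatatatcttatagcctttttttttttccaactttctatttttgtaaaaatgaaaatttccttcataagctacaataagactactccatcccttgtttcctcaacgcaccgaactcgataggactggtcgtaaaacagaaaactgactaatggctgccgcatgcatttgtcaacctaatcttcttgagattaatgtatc

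*HSP42* and *HSP78* each held 3 STRE cores and 3 HSE cores, and in both the HSE cores overlapped to form 1 run of capitals. At least 3 STRE cores were found in 0.487% of 5753 promoter windows, and at least 2 HSE cores in 3.29%. *BTN2* and *CUR1* had 1 HSE core each, 79 and 188 bases before the start codon, and no STRE core in this window. *HSP104* and *HSP12* had 2 STRE cores each and no HSE core, and *HSP26* had neither. Over all windows 21.7% held an STRE core and 23.0% an HSE core. A match of these letters is not evidence of binding, and none in the window says nothing of sequence farther away.

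**Figure D1:**
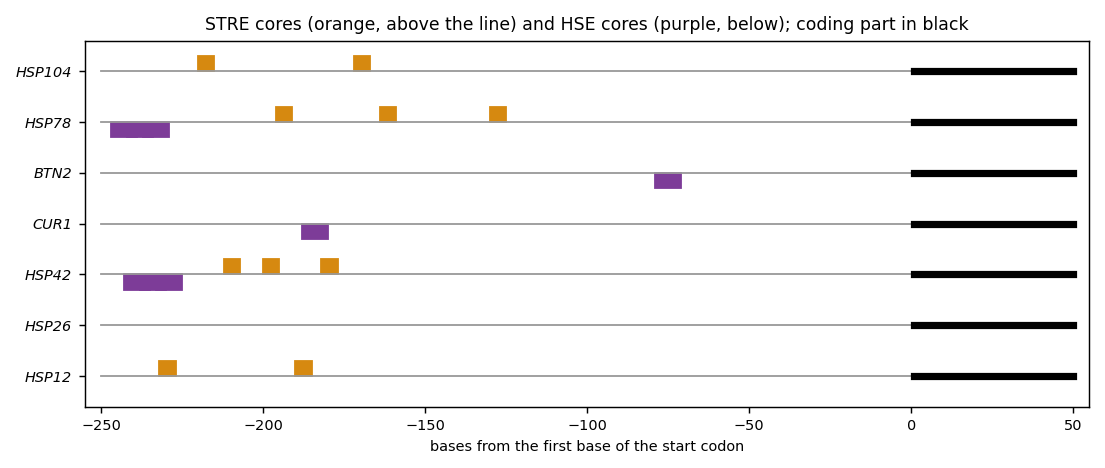
Positions of STRE cores (orange, above each line) and HSE cores (purple, below) in the window from 250 bases before to 50 bases after the start codon of each gene, on the horizontal axis in bases. *HSP78* and *HSP42* carry both kinds of motif, 3 matches of each, and *HSP26* carries none.

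In log phase without pretreatment the genes stood in a wide order of levels. Levels are given as TPM, in which reads are divided by coding length so that genes can be compared. *HSP12* had 265 and 160 TPM in the log phase libraries of the time course, *HSP104* 128 and 112, and *HSP42* 41.6 and 56.2. The other members lay between 22.9 and 49.1 TPM. *HSP12* and *HSP104* ranked 469 and 809 from the top among all genes in replicate 1, the 5 others between 1819 and 2731. The libraries of *HSP12* and *HSP104* did not overlap with those of the other members, whereas the 5 others overlapped with one another except that *HSP42* lay above *HSP78*. The YPD log phase library kept *HSP104* at 130 TPM but had *HSP12*, from only 4 reads, at 16.2 TPM.

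*BTN2*, whose product carries misfolded proteins to deposits, had the largest rise of the members over the first 15 min without glucose. In CPM, counts scaled to the total of gene reads in a library, replicate 1 held 31.8 in log phase, 26.5 at 1 min, 39.8 at 5 min and 176 at 15 min. Replicate 2 held 52.9, 40.9, 58.8 and 114 CPM at the same times, from 5, 5, 8 and 11 reads. The single libraries of 10, 20 and 30 min held 55.7, 438 and 164 CPM. Both 15 min libraries were above every library of log phase, 1, 5 and 10 min, and the 20 min library was the highest. For this and like statements on other members below, the share of all genes that separated in the same way was not counted.

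The rise of *BTN2* at 15 min over log phase was 2.22 on the log2 scale (SE 0.35, adjusted p = 0.0434, edgeR's quasi-likelihood test with Benjamini-Hochberg adjustment over 5255 genes, 2 libraries each). It was the only member called, 1 of 7, where 0.0381% of all genes tested were called higher. The call rested on the fit, since the adjusted p was 0.209 with only the libraries of both times in the model and 0.0602 to 0.623 without either log phase library, 1 min, 5 min or 15 min replicate 1. In DESeq2 the log2 change was 2.04, with no adjusted p given. Libraries with the same replicate number deviated together, so the numbers were also taken as a block. The number also separates deep from shallow libraries, and in the sample key 15 min replicate 1 belongs to pool 2 and replicate 2 to pool 1, the reverse of log phase, 1 and 5 min. With the pool as block *BTN2* was not called (1.84, adjusted p = 0.125). In the fit with the replicate block *BTN2* rose by 2.41 (SE 0.23, adjusted p = 2.3e-22), and *HSP104* and *HSP42* were called too, 3 of 7 where 1.66% of all genes were called higher. DESeq2 with the same block called only *HSP104* of the members and gave no adjusted p for *BTN2* or *HSP42*. These blocked calls depended on the deep libraries: without 15 min replicate 1, or without log phase replicate 1, none of the 3 was called, the lone library of that time then being assumed to vary like the others. *BTN2* then changed by 1.15 without 15 min replicate 1 and by 1.61 without log phase replicate 1. Replicates are named as such in the labels with no word on separate cultures, so these p-values measure the spread between libraries.

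*HSP104*, the cytosolic disaggregase, changed by much less. Replicate 1 had 374 CPM in log phase, 391 at 1 min, 457 at 5 min and 531 at 15 min, and replicate 2 had 307, 335, 603 and 570 CPM. The 10, 20 and 30 min libraries had 571, 629 and 562 CPM. Every library from 5 min on was above both log phase libraries. The change at 15 min was 0.67 on the log2 scale (SE 0.23, adjusted p = 0.760, edgeR), and 0.62 (SE 0.15, adjusted p = 0.0013) with the replicate block. At 5 min the blocked fit gave 0.46 (SE 0.15, adjusted p = 0.0490), 1 of 7 members where 0.476% of all genes were called higher, and leaving out any log phase or 1 min library, or 5 min replicate 2, lifted that adjusted p to between 0.0632 and 0.599.

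*HSP42*, a small heat shock protein that sequesters misfolded proteins in the cytosol, was called only in fits with the block. Its replicate 1 had 50.5 CPM in log phase, 42.0 at 1 min, 40.8 at 5 min and 84.9 at 15 min, and replicate 2 had 63.4, 81.8, 51.5 and 93.3 CPM from 6 to 10 reads. The 10, 20 and 30 min libraries had 83.5, 178 and 110 CPM. The log2 change at 15 min over log phase was 0.76 (SE 0.33, adjusted p = 0.9996, edgeR), and 0.80 (SE 0.21, adjusted p = 0.0055) with the replicate block, where it was 0.0607 without 1 min replicate 1 and 0.110 without 5 min replicate 1. Both 15 min libraries lay above both log phase and both 5 min libraries. Between 5 and 15 min the blocked fit called *BTN2* (2.06, SE 0.22, adjusted p = 4.1e-17) and *HSP42* (1.08, SE 0.21, adjusted p = 1.8e-04), 2 of 7 members where 0.59% of all genes were called higher. Without the block no gene was called for that step (0.0%), with adjusted p of 0.209 for *BTN2*. That blocked step, too, was lost for both genes without 5 min replicate 1 or without 15 min replicate 1.

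The mitochondrial disaggregase *HSP78* had 82.6 CPM in log phase, 71.8 at 1 min, 81.6 at 5 min and 94.8 at 15 min in replicate 1. *HSP26* had 23.3, 18.5, 23.1 and 33.7 CPM there, and *HSP12* 93.9, 101, 110 and 129 CPM. None of these 3 was called at any of these times, in the fit with or without the block. Their log2 changes at 15 min were 0.29, 0.43 and 0.51, with SE between 0.27 and 0.43. In the 30 min library *HSP78* was at 1 read and *HSP26* at 0 reads, which allows up to 41.1 CPM at that depth.

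*CUR1*, the paralogue of *BTN2*, did not share its rise. Replicate 1 had 18.7 CPM in log phase, 11.7 at 1 min, 7.47 at 5 min and 7.93 at 15 min. Replicate 2 had 3, 2, 0 and 1 reads at these times, and the 10, 20 and 30 min libraries had 0 reads, with upper limits of 41.1 to 41.8 CPM. The deep libraries after glucose removal were all below the log phase library. The log2 change was -1.55 at 5 min (SE 0.59, adjusted p = 0.816, edgeR) and -1.26 at 15 min (SE 0.58, adjusted p = 0.9996), so no fall was called. In the blocked fit the adjusted p was 0.0720 at 5 min and 0.141 at 15 min, but 0.0074 and 0.0210 without 15 min replicate 2, from which *CUR1* had 1 read. The difference between the paralogues was not tested.

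At 1 and 5 min edgeR without the block called no gene higher (0.0%) and none lower, although 132 and 225 of 5255 genes had an unadjusted p under 0.05, among them 0 and 2 members. DESeq2 called 0 higher and 22 lower at 1 min, and 0 higher and 68 lower at 5 min, with no member among them. With the block 0.114% of all genes were called higher at 1 min and no member was. In the fit of all 12 libraries, which assumes that single libraries vary like the replicated times, *BTN2* was higher at 20 min by 3.40 (SE 0.43, adjusted p = 0.0571) and at 30 min by 2.19 (SE 0.52, adjusted p = 0.152). No gene was called higher at 20 min (0.0%) and 0.0402% at 30 min, of 2486 tested. With the block *BTN2* (adjusted p = 5.0e-11) and *HSP42* (1.55, SE 0.50, adjusted p = 0.0246) were called at 20 min, where 5.11% of all genes were called higher, and *BTN2* alone of the members at 30 min (adjusted p = 0.0020), where 4.22% were. *CUR1* and *HSP26* had too few reads to enter that fit. The 10, 20 and 30 min libraries carry replicate number 1 but held only 71816 to 73074 reads. The block therefore set them beside the deep log phase replicate 1, so depth and time differ together in the blocked values. Nothing is read from these blocked calls. At 10 min no member was called, with the block (2.29% of all genes higher) or without it (0.0%).

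**Figure D2:**
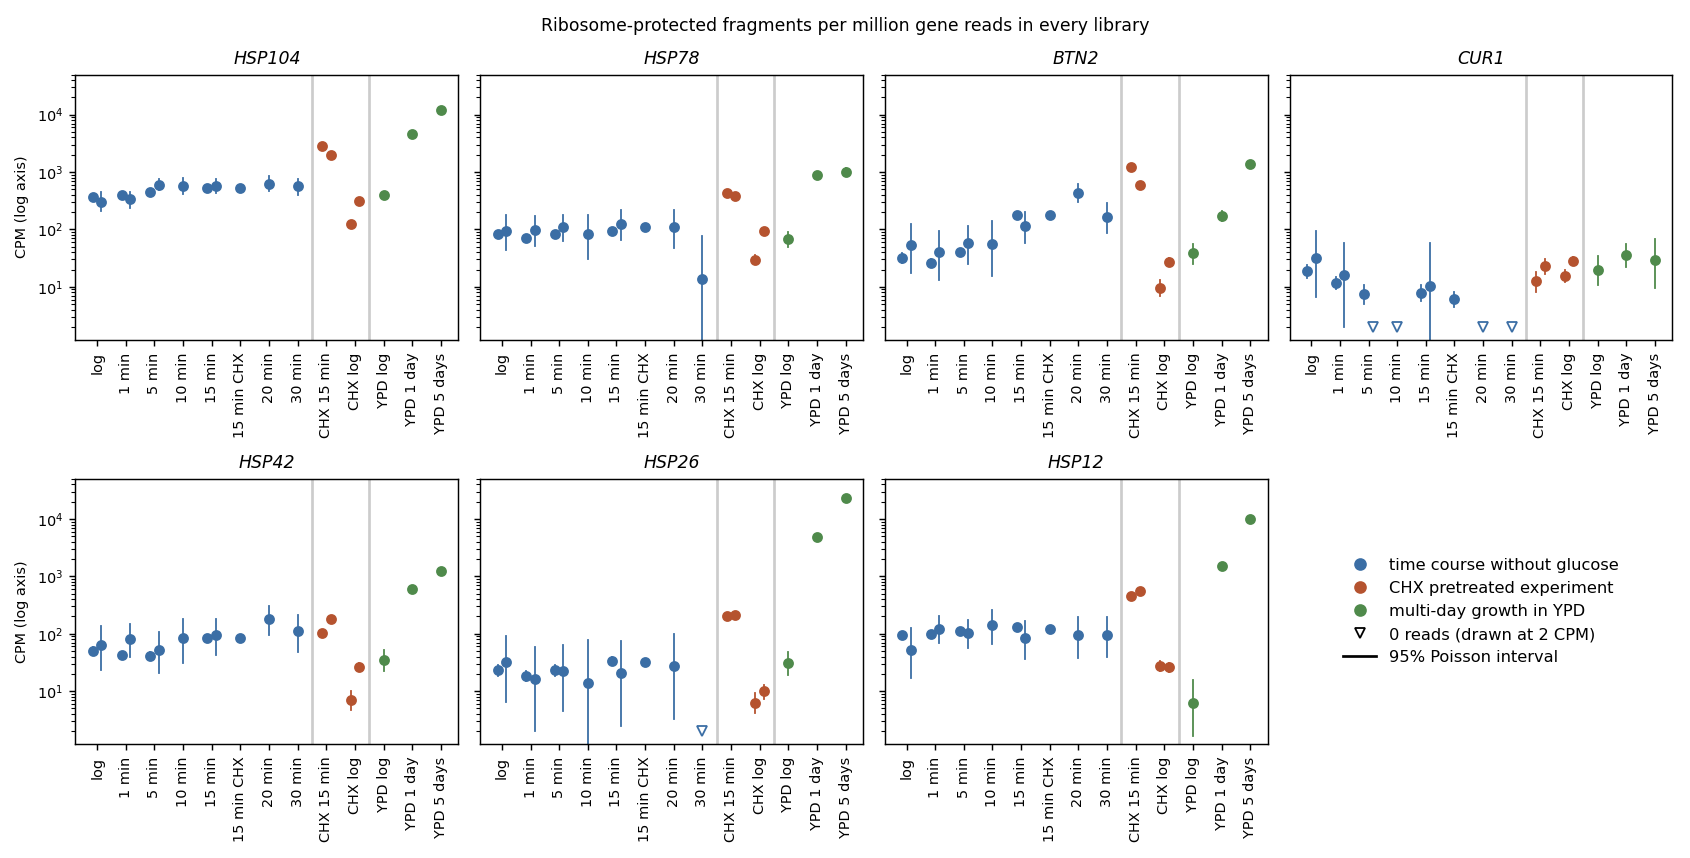
CPM of each gene in all 19 libraries on a log axis, with exact Poisson 95% intervals as lines, the time course in blue, the CHX pretreated experiment in red-brown and growth in YPD in green. *BTN2* climbs within the time course, to 438 CPM at 20 min, while *HSP26* and *HSP12*, which lie between 13.9 and 139 CPM in its libraries with reads, reach 22867 and 10068 CPM after 5 days in YPD.

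In the pretreated experiment, on which the genes were selected, 6 of the 7 were at least 4-fold higher after 15 min without glucose, where 3.27% of 5040 genes with at least 50 reads were. Nothing is read from that count. *HSP104* had 2811 and 2019 CPM at 15 min, against 123 and 318 in pretreated log phase. *BTN2* had 1204 and 592 CPM at 15 min, against 9.59 and 27.1, the widest ratio of the set (log2 ratio of mean CPM + 1, 5.54). *HSP78* had 438 and 388 CPM at 15 min, against 29.7 and 93.0. The starved and log phase libraries did not overlap for these 3 genes, but the genes were selected on this contrast. Nothing is read from that separation.

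Among the small heat shock genes, *HSP26* had 200 and 212 CPM at 15 min, against 6.32 and 9.86 in pretreated log phase. *HSP12* had 446 and 566 CPM at 15 min, against 27.6 and 25.9, and *HSP42* 102 and 183 CPM, against 7.02 and 26.3. *CUR1* alone stayed, at 12.5 and 23.1 CPM after 15 min, against 15.4 and 28.2 in log phase (log2 ratio -0.28). The pretreated log phase libraries themselves differed in these genes. Replicate 2 over replicate 1 had log2 ratios of 1.36 for *HSP104*, 1.61 for *HSP78*, 1.41 for *BTN2* and 1.77 for *HSP42*, at or above the 98.9th percentile of 4857 genes. For *HSP12* it was -0.09. The 15 min libraries differed too for *BTN2*, at 1204 and 592 CPM. Its log2 ratio of 15 min over log phase was 6.83 in replicate 1 and 4.40 in replicate 2.

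The ratios of both experiments are given side by side only, because the members were selected on the pretreated one, where 165 of 5040 genes were at least 4-fold higher, against 6 of 4986 genes in replicate 1 of the time course. The log2 ratio of 15 min over log phase was 3.45 in the pretreated experiment and 0.50 in replicate 1 of the time course for *HSP104*, 4.51 and 0.52 for *HSP26*, and 4.19 and 0.45 for *HSP12*. For *BTN2* the values were 5.54 and 2.43. This difference was not tested. In the time course, counts in the matched pretreated library of 15 min were nearly level with those in replicate 1. This sets 1 library of pool 1 against 1 of pool 2, so pretreatment and pool differ together. The log2 ratios over replicate 1 were -0.03 for *HSP104*, 0.03 for *BTN2* and -0.02 for *HSP42*. For *HSP26*, *HSP12* and *CUR1* they were -0.05, -0.08 and -0.34. The counting intervals of all these genes included 0. Only *HSP78* (0.21, 95% interval 0.05 to 0.37) lay outside. No pretreated log phase library was matched to the time course, and the log phase values of the experiments differed too: *HSP26* had 6.32 and 9.86 CPM in pretreated log phase, against 23.3 and 31.7 CPM in log phase without pretreatment. Pretreatment, library protocol and culture differ together between the experiments and cannot be told apart.

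**Figure D3:**
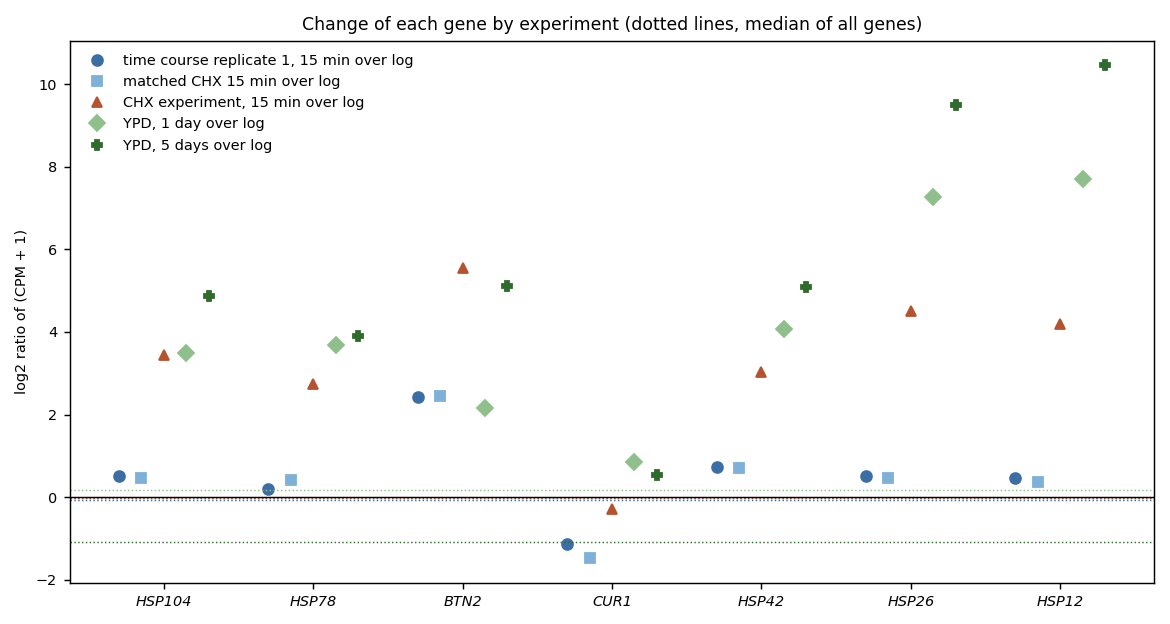
Log2 ratio of (CPM + 1) of each gene in 5 comparisons, with dotted lines at the median of all genes of each. Triangles (pretreated experiment) and diamonds and crosses (YPD) lie above circles and squares (time course and its matched pretreated library) for all genes but *BTN2*, where 1 day in YPD (2.15) lies below both.

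During growth in YPD the set took a rising share of all RPFs. Together the 7 genes held 0.0602% of reads in log phase, 1.26% after 1 day and 4.85% after 5 days, compared with 0.0634% to 0.148% in all libraries of the time course. *HSP26* had 30.7 CPM in log phase, 4859 after 1 day and 22867 after 5 days. *HSP12* had 6.13, 1495 and 10068 CPM, and *HSP104* 405, 4556 and 11902. By TPM *HSP26* ranked 3 and *HSP12* ranked 5 from the top of all genes after 5 days, and *HSP104* ranked 36.

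The disaggregase *HSP78* had 67.4 CPM in log phase, 882 after 1 day and 1014 after 5 days, so most of its change came before day 1. *BTN2* had 38.3, 174 and 1357 CPM, with the larger step after day 1. *HSP42* had 35.3, 613 and 1245 CPM, and *CUR1* 19.9, 36.5 and 29.5 CPM from 13, 21 and 5 reads. With 1 library per condition there is no test. All 6 members with at least 50 reads in both libraries together were at least 4-fold higher after 1 day than in log phase, where 16.4% of 3156 genes were, and likewise after 5 days, where 14.2% of 2219 genes were. *BTN2*, *HSP26* and *HSP12* were at least 4-fold higher after 5 days than after 1 day, 3 of 6 where 4.22% of 2321 genes were. Over all genes 98 were higher and 261 lower by that measure in the last comparison, but 163 and 125 with TMM factors, and 314 higher and 650 lower for 5 days over log phase, but 360 and 444 with TMM factors. The members' counts were the same with either scaling.

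The log2 ratio of 5 days over log phase was 9.50 for *HSP26* (exact 95% interval 8.91 to 10.3, counting error only) and 10.5 for *HSP12* (9.32 to 12.6), whose log phase value came from 4 reads. It was 5.11 for *BTN2* (4.55 to 5.80), 5.10 for *HSP42* (4.52 to 5.83), 4.88 for *HSP104* (4.69 to 5.07) and 3.89 for *HSP78* (3.43 to 4.42). The median of all genes was -1.08 in this comparison, and -0.70 with TMM factors. *CUR1* had 0.54 with an interval of -1.28 to 2.15, which includes 0. The order of the members thus differed by experiment: *BTN2* had the highest ratio after 15 min without glucose in replicate 1 of the time course, and *HSP12* and *HSP26* had it in YPD.

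The polarity score of a gene lies between -1, all reads at the start end of the coding sequence, and 1, all reads at the stop end. In the deep time course libraries the median over genes with over 25 reads was 0.0481 in log phase, 0.145 at 1 min, 0.146 at 5 min and 0.112 at 15 min. *BTN2* went the other way at 15 min, with -0.0002 in log phase, 0.117 at 1 min, 0.0452 at 5 min and -0.498 at 15 min. *HSP42* had 0.0125, 0.128, 0.191 and -0.279, and *HSP26* 0.174, 0.171, 0.0846 and -0.0773. Reads on all 3 genes lay nearer the start codon at 15 min than in log phase. At 5 min *HSP26* (-0.0894 from log phase) and *HSP12* (-0.118) were at the 4.17th and 2.81st percentile of differences, whereas *BTN2* and *HSP42* were within the bulk of genes. *HSP26* had only 82 reads in log phase and 93 at 5 min, and *HSP12* had 331 and 440. The percentiles take no account of reads per gene.

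As differences of 15 min from log phase in replicate 1, *BTN2* had -0.498, rank 3 from the bottom of 4817 genes, *HSP42* -0.292 (rank 20 from the bottom) and *HSP26* -0.251 (rank 42). The median of all genes was 0.0571 and 29.3% of them were below 0. *HSP12* had -0.114 and *HSP104* -0.105, at the 6.31st and 7.22nd percentile. The score of *HSP12* itself stayed on the stop side, at 0.283 in log phase and 0.169 at 15 min. These were at the 93.8th and 69.2nd percentile of genes in their libraries. *HSP78* (0.0005) and *CUR1* (0.0806) lay within the bulk of genes. Reads in log phase and at 15 min were 112 and 885 for *BTN2*, 178 and 428 for *HSP42*, and 82 and 170 for *HSP26*. The ranks take no account of reads per gene. These are single libraries, log phase of pool 1 and 15 min of pool 2, so time and pool differ together. They carry no test, and the comparison was added once the depth of replicate 2 was known.

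The matched pretreated library of 15 min gave the same picture from other reads. Its polarity was -0.558 for *BTN2*, -0.275 for *HSP42*, -0.0678 for *HSP26*, -0.144 for *HSP104*, -0.214 for *HSP78*, 0.0353 for *CUR1* and 0.196 for *HSP12*. Against 15 min replicate 1 the members differed by -0.0727 to 0.0267, within the 5th to 95th percentile of all genes (-0.125 to 0.104). Replicate 2 of 15 min had -0.232 for *BTN2* from 11 reads, but 0.208 for *HSP42* from 9 reads. At 20 min *BTN2* had -0.0517 from 32 reads, nearer 0 than at 15 min and at the 9.85th percentile of its library.

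**Figure D4:**
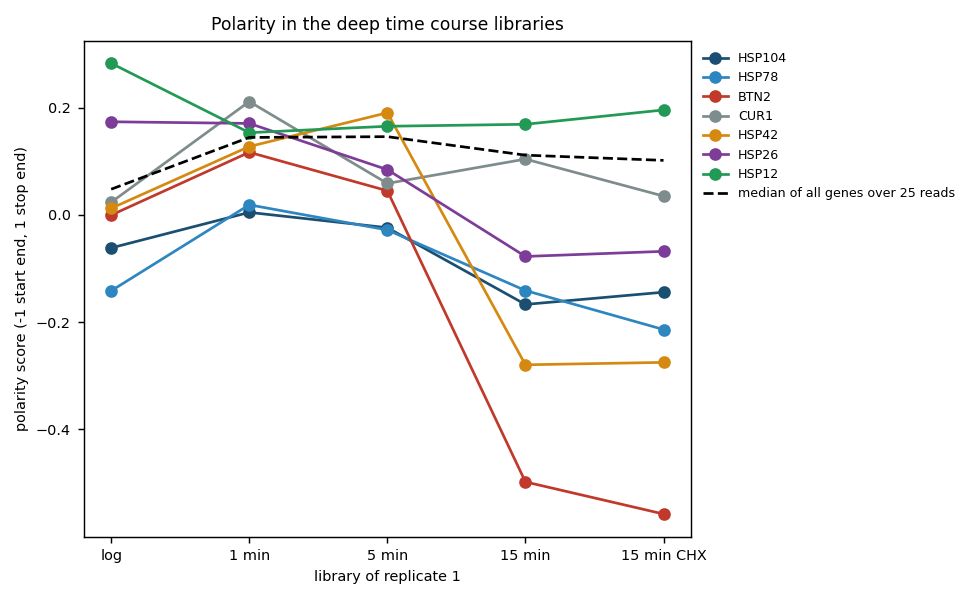
Polarity score of each gene in the 4 deep time course libraries of replicate 1 and in the matched CHX pretreated library of 15 min, with the median of all genes as a dashed line. *BTN2* drops to -0.498 and *HSP42* to -0.279 at 15 min, while the median stays at 0.112. Replicate 1 of 15 min is of pool 2, the other libraries shown of pool 1.

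*HSP104* was the only member with over 25 reads in all 8 replicated libraries, and so the only one in the polarity test. Its score was -0.0614 and -0.0005 in log phase, 0.0049 and 0.180 at 1 min, -0.0237 and -0.0433 at 5 min, and -0.167 and -0.111 at 15 min. Both 15 min libraries were below both log phase libraries. The 10, 20 and 30 min libraries had -0.0660, -0.351 and -0.0847 from 41 to 46 reads. The difference at 15 min was -0.108 (SE 0.062, adjusted p = 0.292, limma, 488 genes) and was not called, nor were those at 1 min (0.124, SE 0.062, adjusted p = 0.177) and 5 min (-0.0025, SE 0.062, adjusted p = 0.984). At 15 min limma called no gene (0.0%), with 126 at an unadjusted p under 0.05, and the median of all genes was 0.0623. At 1 and 5 min 7.17% and 4.3% of all genes were called. With the replicate block *HSP104* was still not called (adjusted p = 0.0754, 0.977 and 0.140 at 1, 5 and 15 min), where 35.2%, 36.1% and 23.8% of all genes were.

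In the pretreated experiment polarity was part of the selection and is described only. *HSP104* had -0.263 and -0.190 after 15 min, against -0.0073 and 0.0024 in log phase. *HSP78* had -0.348 and -0.285 after 15 min, against -0.0952 and -0.0968. *BTN2* had -0.492 and -0.456 after 15 min, against -0.244 and -0.285. The library medians meanwhile were 0.0582 and 0.0382 after 15 min, against -0.146 in both log phase libraries, so these genes ended on the start side while most genes had moved to the stop side. *HSP104* stood at the 87.2nd percentile of genes in both log phase libraries and at the 4.31st and 16.2nd after 15 min.

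*HSP42*, *HSP26* and *HSP12* differed from log phase by 0.0171, -0.0130 and -0.0837 in the mean score, where the median of 3979 genes was 0.185. *CUR1* did not pass 25 reads in every library. Among the differences of all genes *BTN2*, *HSP104* and *HSP78* stood at the 0.779th, 0.503rd and 0.553rd percentile here. In pretreated log phase the median of both libraries was itself on the start side, at -0.146. *HSP42* had -0.272 and -0.362 there, from 30 and 136 reads, at the 12.6th and 4.98th percentile. *HSP26* had -0.182 and -0.319, from 27 and 51 reads, at the 37.2nd and 8.16th percentile.

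**Figure D5:**
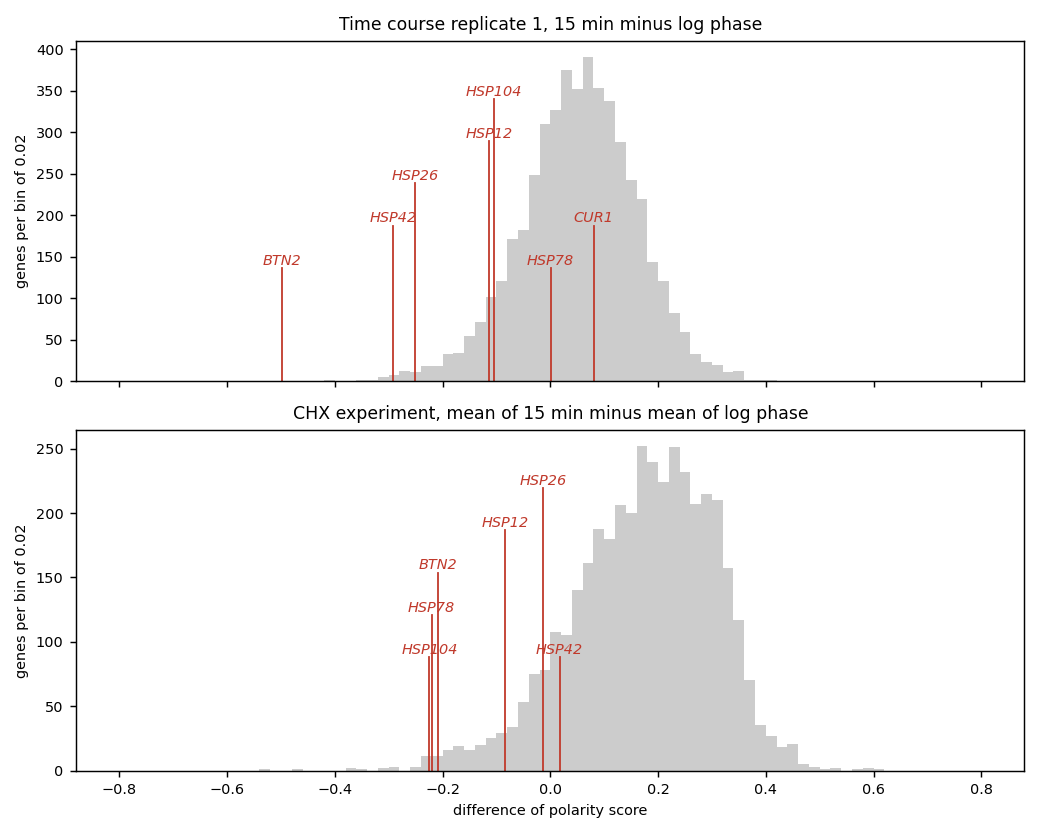
Histograms of the difference in polarity score over all genes (grey, genes per bin of 0.02 on the vertical axis), with the members as red lines. The upper panel is 15 min replicate 1 minus log phase replicate 1 of the time course, with *BTN2* at -0.498, and the lower one the mean of 15 min minus the mean of log phase in the pretreated experiment, with *HSP104* at -0.224. In the upper panel log phase is of pool 1 and 15 min of pool 2.

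In YPD the library medians were 0.0171 in log phase, 0.176 after 1 day and -0.0137 after 5 days. *HSP104* followed this course with -0.0421, 0.106 and -0.106. *HSP78* had -0.154, -0.0411 and -0.0880, from 44, 508 and 172 reads. It stood at the 7.01st, 7.64th and 31.9th percentile of genes, on the start side throughout. The other members had 25 reads or fewer in YPD log phase. *HSP26* had 0.164 after 1 day and -0.0443 after 5 days, *HSP42* 0.179 and -0.141, and *BTN2* -0.0728 and -0.317. *BTN2* stood at the 5.93rd and 5.04th percentile of genes on those days. *HSP12* had -0.0099 and 0.0450, a difference at the 94.3rd percentile of 922 genes.

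Over all 19 libraries the log2(CPM + 1) values of the 6 members other than *CUR1* correlated pairwise with Pearson r between 0.606 (*BTN2* and *HSP26*) and 0.942 (*HSP78* and *HSP26*), and *CUR1* had -0.0533 with *BTN2* and at most 0.481 with any member. These correlations describe libraries that share experiments and depth, the YPD libraries weigh on them, and they include the 4 pretreated libraries on which the members were selected. Among 19 libraries the genes nearest to *HSP104* were *TPS2* (r = 0.944), *GCV1* (0.938) and *ALD4* (0.926), and those nearest to *BTN2* were *ROQ1* (0.868), *TMA10* (0.845) and *PNC1* (0.840). *HSP78* was nearest to its fellow member *HSP26*, then to *MSC1* (0.941) and *ATG8* (0.940), and *HSP26* to *ATG8* (0.952), *RPN4* (0.949) and *RGI2* (0.944). *HSP12* was nearest to *SSE2* (0.933), *BDH2* (0.924) and *ALD4* (0.905), and *HSP42* to *BDH2* (0.923), *GCV2* (0.917) and *SDS24* (0.913). *CUR1* was nearest to *FAR7* (0.953), *SMX3* (0.932) and *SHR5* (0.920). It had 0 reads in 5 min replicate 2 and in the 10, 20 and 30 min libraries, and these zeros weigh on its correlations. In the 30 min library *HSP78* had 1 read and *HSP26* 0 reads, which weighs on the value of that pair.

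None of the 46 other listed genes of the pathway was called at 15 min of the time course without the block. Of 10 cytosolic Hsp70, Hsp110 and J protein partners of Hsp104, 0 were called by edgeR and the median log2 change was 0.17, beside 0.51 for the members and 0.0094 for all genes. Of 7 mitochondrial partners of Hsp78, 7 Hsp90 chaperones, 5 quality control genes, 6 stress regulators and 11 general stress genes, 0 were called, with medians of 0.10, 0.012, -0.17, 0.043 and 0.30. With the replicate block 2 partners were higher, *YDJ1* (0.48, adjusted p = 0.0066), the main cytosolic J protein, and *FES1* (0.74, adjusted p = 0.0215), a nucleotide exchange factor of Hsp70. The general stress gene *PNC1*, a nicotinamidase, was higher (0.91, adjusted p = 4.3e-04) and the Hsp90 co-chaperone gene *HCH1* lower (-0.77, adjusted p = 0.0170). In that fit 1.66% of all 5255 genes were called higher, and 204 genes lower. The members' calls in it were lost without a deep library, and for the genes named here this was not tested. *YDJ1*, *FES1* and *HCH1* are named after their values were seen.

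In the pretreated experiment 8 of the 11 general stress genes and 3 of the 10 partners (*SSA4*, *APJ1* and *SSA1*, named after their values were seen) were at least 4-fold higher at 15 min, and 0 of the 25 genes of the other lists. Over all 5040 genes with enough reads 3.27% were. The *SSA* genes have close copies in sequence, so their counts are uncertain. The median log2 ratio was 2.84 for the general stress genes and 1.61 for the partners, beside 3.45 for the members and -0.01 for all genes. After 1 day in YPD the median log2 ratio over log phase was 5.20 for the 10 general stress genes with enough reads. It was 0.91 for the partners, 3.89 for the members and 0.18 for all genes. All 10 of these general stress genes were at least 4-fold higher, where 16.4% of 3156 genes were. Stress regulators had 2.25, mitochondrial partners 1.05, quality control genes 0.99 and Hsp90 chaperones -0.29. After 5 days the median was 4.27 for the 9 general stress genes with enough reads and 2.41 for the partners. It was 5.11 for the members and -1.08 for all genes. Quality control genes had 3.01, stress regulators 2.69, mitochondrial partners 0.54 and Hsp90 chaperones -0.0035.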

How the data were processed

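Counts and polarity scores per gene were deposited for each RPF library. The authors trimmed reads with cutadapt, removed noncoding RNA, aligned with Bowtie to R64-1-1, removed PCR duplicates and counted raw reads per gene with HTSeq, and they computed the deposited polarity score with their own scripts. Trimming and alignment of pretreated libraries followed an earlier protocol, so levels across experiments are set side by side only. Genes with 0 reads are not listed and were set to 0, and 5761 of 5767 genes matched a coding length in R64.

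The main count test was edgeR 4.0.16 (quasi-likelihood, TMM, filterByExpr) in R 4.3.3 on 8 libraries of 4 times, with a call at an adjusted p under 0.05 (SE from the F statistic), and limma 3.58.1 served for polarity (genes with over 25 reads in every library). DESeq2 1.42.0 was an alternative. Scripts were tested on simulated data. Replicate differences at the 4 times correlated at r = 0.781 to 0.84 over 998 genes with at least 10 reads. The replicate number was therefore also taken as a block. At each of these times replicate 1 was deep and replicate 2 shallow, so depth and pairing cannot be told apart. Python 3.11.15 gave exact Poisson 95% intervals, ratios with a pseudocount of 1 CPM (called at 4-fold, at least 50 reads) and limits of 3 reads for a count of 0. Intervals cover counting error only.

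All 7 members are named. So are the 3 genes nearest to each (over 20 CPM in 1 library) and up to 3 genes per other list with the smallest adjusted p at 15 min, where ties at the largest p were not named. Members and lists were chosen with earlier results of these data known.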

Additional observations from a re-analysis of the deposited data

How the results depend on the processing

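The count of members called higher at 15 min over log phase was 1. It was 0 with DESeq2, with the block by sequencing pool (*BTN2* 1.84, adjusted p = 0.125) and with 2 times only in the fit, and 3 with the replicate block, which pairs libraries by number and called 87 genes higher and 204 lower instead of 2 and 6. DESeq2 called 0 higher and 35 lower. Leaving out each library in turn gave 0 to 1, with *BTN2* at 1.57 to 2.41 and adjusted p of 0.0170 to 0.623: the call was lost without either log phase library, 15 min replicate 1, 1 min replicate 1 or 5 min replicate 1. Adjusted p for *BTN2* ranged from 0.0209 to 0.209 over the other settings without the replicate block. With the replicate block 1 member was called at 5 min and 2 between 5 and 15 min (with DESeq2 and the block, added after seeing the data, 1 there, 0 at 5 min, and 1 at 15 min over log phase, *HSP104*). In the blocked fits, leaving out each library gave 0 to 3 at 15 min, 0 to 1 at 5 min and 0 to 2 for 15 over 5 min, and 0 to 1 lower at 5 and at 15 min (*CUR1*, without 15 min replicate 2). At 20 min the count was 0, then 1 with RLE size factors and 2 with the replicate block, and at 30 min 0, then 1 with the block. At 20 and 30 min that block groups shallow libraries with deep ones. The cause was not tested. In YPD, TMM factors moved the median of all genes from -0.55 to -0.01 for 5 days over 1 day and changed the genes at least 4-fold higher and lower from 98 and 261 to 163 and 125, and from 314 and 650 to 360 and 444 for 5 days over log phase, but no count of members changed. A minimum of 10 reads gave 614 and 1114 for 5 days over log phase and 155 and 642 for 5 days over 1 day. No other setting changed a member's call. Depth limits the shallow libraries, where all members but *HSP104*, and *BTN2* at 20 min, had 25 reads or fewer.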

Other observations

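In replicate 1 of the time course 18 genes with over 25 reads in both libraries were at least 2-fold higher at 15 min than in log phase, *BTN2* among them, and 9 of these 18 had a lower polarity score than in log phase, beside 29.3% of the 4799 other genes. For the pretreated experiment, only genes that passed 25 reads in each of its 4 libraries were compared. Of these, 80 were at least 4-fold higher, and 37 of the 80 had a lower score (46.2%), beside 9.31% of 3899 other genes. The 80 include 6 members, 5 of them with a lower score. The members were selected on this contrast, so no conclusion is drawn from that share. Both comparisons are descriptions of genes, which are not replicates.

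Of the Hsp70 genes that were set beside the members, *SSA3* had 12500 CPM after 5 days in YPD, against 7.66 CPM from 5 reads in YPD log phase, a log2 ratio of 10.5 like that of *HSP12*. *SSE2* had 1227 CPM, against 27.6. Both were chosen after their values were seen, and the count of *SSA3* is uncertain because the *SSA* genes are close copies in sequence.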
